A study of Mus musculus with 3 samples.

Results

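The subject is the DNA replication machinery, a list of 44 mouse genes taken by symbol, and by older symbol where the arrays use one, from the gene probes of 3 two-colour arrays. All 44 genes were matched, 6 of them through an older name such as Orc1l for Orc1, and they stand among 19480 genes tested. They had 64 probes of the 41174 on the array, and 61 of these were tested. The brightest probe stood for each gene. Mouse embryonic stem (ES) cells, pluripotent cells of the early embryo, were untreated and grown with defined serum and leukemia inhibitory factor, which keeps them self-renewing. MEF, mouse embryonic fibroblasts, were grown in DMEM with heat-inactivated serum. Total RNA of ES cell replicates 1, 2 and 3 was labelled with Cy3, and each array also carried MEF RNA labelled with Cy5, so each array gives 1 ratio of ES cells over MEF per probe. The labels name no strain, passage or feeder layer, and they do not say whether the replicates were separate cultures. The p-values below thus measure only the spread between 3 arrays, which may be technical. MEF RNA was 1 control whose own spread is left out, and no dye was swapped, so a dye bias of a single probe stays in its ratio. The stated aim was to show how gene expression in ES cells differs from that in MEF.

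A cell copies its genome once per division by a fixed order of steps. The origin recognition complex marks start sites, Cdc6 and Cdt1 load the MCM helicase there, kinases then switch it on with Cdc45 and GINS, and polymerases, a sliding clamp and its loader copy the opened strands. Genes of these steps are classic targets of the E2F transcription factors, and ES cells are known for a short G1 phase and a large share of cells in S phase.

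The markers followed the labels. All 6 ES cell markers, Pou5f1 and Nanog among them, were higher in ES cells, with log2 ratios from 3.62 to 6.33, and all 6 fibroblast markers were lower, from -8.10 to -2.52. All 6 macrophage markers were also lower in ES cells, from -6.18 to -2.73. The summed signal of the macrophage markers lay between 375287 and 407949 per array in the MEF channel and between 8346 and 8558 in the ES cell channel, and none was at background in MEF. How far RNA of such cells in the MEF sample enters the ratios below was not tested. In bulk RNA, fewer cells in S phase and less of a transcript per cell cannot be told apart. The arrays shared 1 slide and 1 scan, 68.2% to 74.0% of gene spots were well above background per channel, and between arrays the log2 ratios of genes, which are no independent replicates, correlated at 0.998.

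The replication genes were higher in ES cells almost as a block. Of 44 genes, 41 were called higher and 1, the primase subunit gene Prim2, was called lower, by limma (Benjamini-Hochberg adjusted p under 0.05) with a log2 ratio beyond 1 in either direction. The remaining 2, Rrm1 and Tk1, lay between 0 and 1. Over all tested genes, 20.4% were called higher and 22.5% lower by the same rule. The median log2 ratio of the 44 genes was 1.88, a 3.69-fold higher level in ES cells, and the median of all tested genes was -0.05. A log2 ratio of at least 2, a 4-fold difference, was reached by 19 of the 44, against 6.74% of all tested genes, and 22 more lay between 1 and 2. Every one of the 44 gave clear signal over background in each channel of all 3 arrays, none was saturated, and each kept its sign on all arrays. The SD between arrays was 0.021 in the median and ran from 0.0043 for Orc2 to 0.077 for Pole. So small a spread made the adjusted p pass for 95.5% of all tested genes in one direction or the other, and the fold minimum therefore sets the calls.

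**Figure D1:**
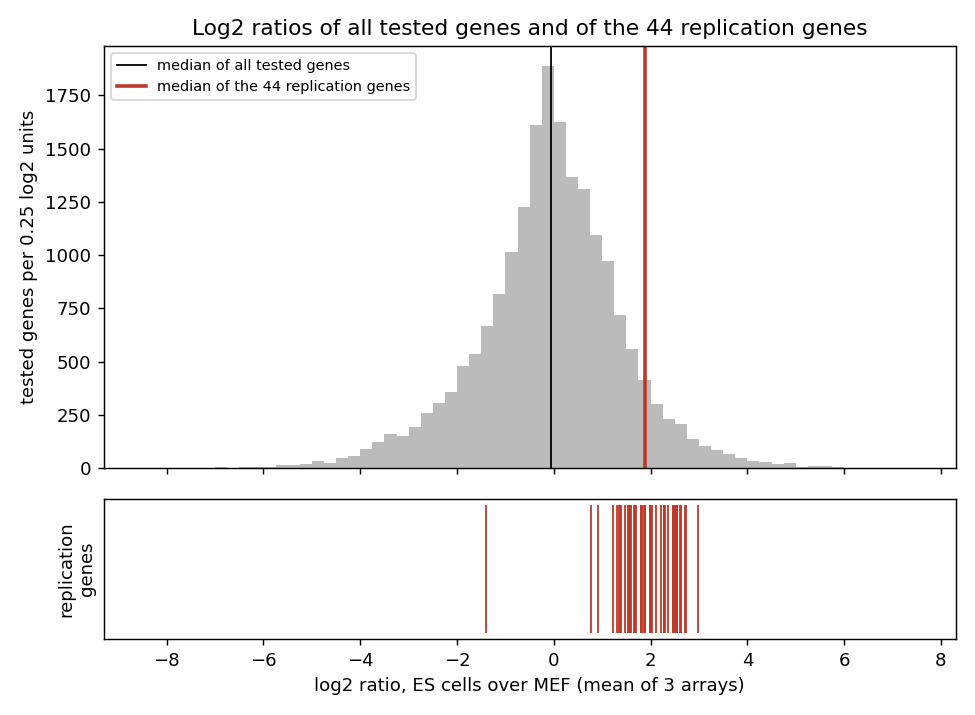
Histogram of mean log2 ratios (ES cells over MEF, x axis) of all 19480 tested genes (count per bin on the y axis), with 1 line per replication gene in the lower panel. The replication genes lie from -1.40 to 2.98, all but Prim2 to the right of 0, with a median of 1.88 against -0.05 for all genes.

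The rank order of the ratios ran from Orc1 at the top to Prim2 at the bottom, and most steps in it were small. Of the 43 pairs of neighbours in that order, 25 had ranges over the 3 arrays that overlapped. Orc1 stood clear of Rfc5 by 0.24 at the upper end, Rfc2 stood clear of Rrm1 by 0.31 near the lower end, and Tk1 lay 2.16 above Prim2. A ratio compares both RNAs at 1 probe and does not say which of 2 genes had more transcript.

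**Figure D2:**
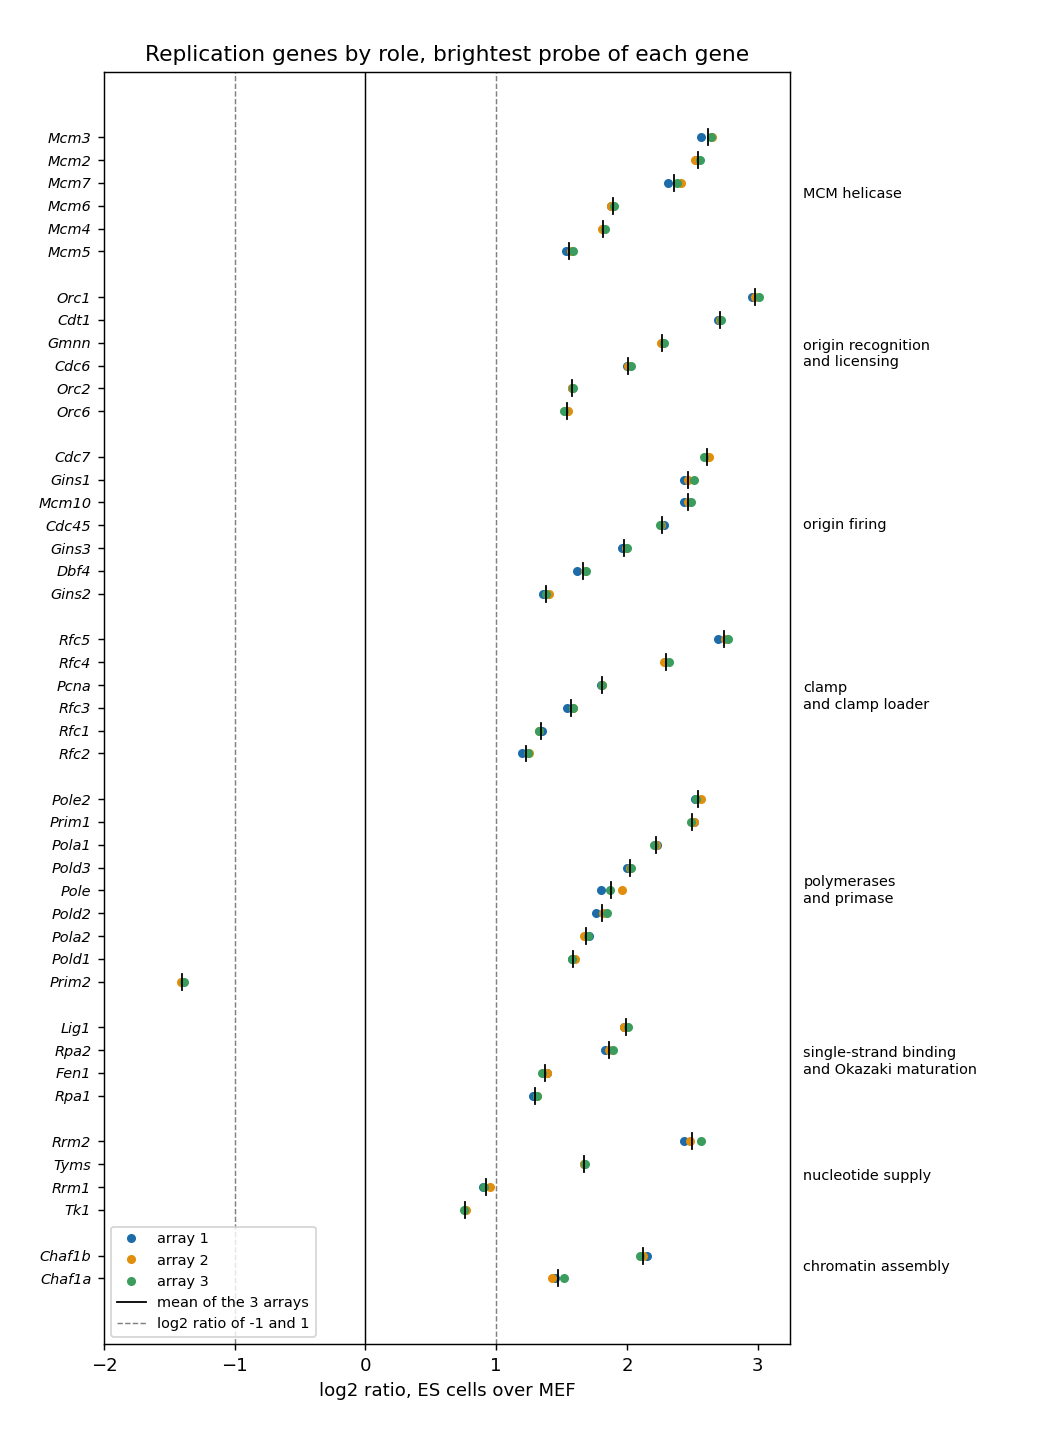
Log2 ratio (ES cells over MEF, x axis) of each of the 44 replication genes by its brightest probe, grouped by role; dots are single arrays, bars the mean of 3 arrays, and dashed lines mark the fold minimum at -1 and 1. All groups lie right of 1 except for Rrm1 (0.92) and Tk1 (0.76) of nucleotide supply and Prim2 (-1.40) of the primase.

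Origin recognition and licensing genes were all higher in ES cells, with a median of 2.14 (4.41-fold) over 6 genes. Orc1, the largest subunit of the origin recognition complex, had log2 ratios of 2.96, 2.98 and 3.01 on the 3 arrays, with spot signals of 17709, 17311 and 16789 in ES cells against 1993, 1920 and 1864 in MEF. No array of either RNA came near the other, and the mean of 2.98 ± 0.023 (SD, n = 3 arrays; adjusted p = 1.75e-07, limma) is a 7.90-fold difference, the largest of the 44. Its probe maps in more than 1 block to chr4:107988606-107989513 of mm7, the mouse build of the files, since the span is longer than the probe of 60 bases. The other core subunits on the list were less far apart, Orc2 at 1.58 ± 0.0043 and Orc6 at 1.54 ± 0.014. The ranges of Orc2 and Orc6 over the arrays did not overlap with that of Orc1. Cdt1, which brings the MCM ring to the origin, had ratios of 2.70, 2.71 and 2.72 and a 6.54-fold difference. Cdc6, its ATPase partner in loading, stood at 2.01 ± 0.012. Gmnn encodes geminin, the inhibitor that holds Cdt1 back after S phase has begun, and it too was higher, at 2.26 to 2.28 and 4.82-fold. The loader genes and their inhibitor were thus both called higher.

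The MCM helicase genes, which encode the ring that unwinds DNA, had a median of 2.13 (4.36-fold), and all 6 subunits were called higher. Mcm3 was at 2.57, 2.65 and 2.64, with mean signals of 172197 in ES cells and 26906 in MEF, a 6.14-fold difference (adjusted p = 3.04e-07, limma). Mcm2 followed at 2.54 ± 0.021 and Mcm7 at 2.36 ± 0.048. These 3 subunits lay apart from the other three, whose highest array value was 1.90. Mcm6 stood at 1.89 ± 0.015 and Mcm4 at 1.82 ± 0.012. Mcm5 was lowest at 1.53, 1.57 and 1.59, a 2.95-fold difference. The 6 subunits form 1 ring, yet their ratios spanned 1.06 log2 units, far beyond the spread between arrays of any of them. Each ratio comes from its own probe, so a difference between subunits holds the probes' own behaviour as well.

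Origin firing genes were higher in all 7 cases, with the highest median of the role groups, 2.27 (4.81-fold). Cdc7, the kinase that phosphorylates the MCM ring, was at 2.61, 2.63 and 2.59, with mean signals of 6545 in ES cells and 949 in MEF. Dbf4, its activating subunit, stood lower at 1.62, 1.68 and 1.69. No array value of Cdc7 overlapped with one of Dbf4. Mcm10, needed to activate the loaded helicase, stood at 2.47 ± 0.024, and Cdc45, which joins the active helicase, at 2.27 ± 0.017. The GINS genes, whose products complete that helicase, were Gins1 at 2.47 ± 0.036, Gins3 at 1.98 ± 0.024 and Gins2 at 1.38 ± 0.022. By the brightest probes, Gins1 and Gins2 lay more than 1 log2 unit apart, with array values of 2.44 to 2.51 and 1.36 to 1.40. The other Gins1 probe was at 2.28, which is less than 1 log2 unit above Gins2.

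The clamp and clamp loader genes had a median of 1.69 (3.23-fold), and all 6 were called higher. Pcna, the sliding clamp that tethers polymerases to DNA, was nearly the same on each array, at 1.80, 1.81 and 1.81, a 3.50-fold difference. The 5 RFC genes encode the machine that opens and closes the clamp. Rfc5 was highest at 2.70, 2.75 and 2.77, and Rfc2 was lowest at 1.20, 1.25 and 1.24. Rfc4 stood at 2.30 ± 0.019, Rfc3 at 1.57 ± 0.029 and the large subunit gene Rfc1 at 1.34 ± 0.0085. The loader subunits thus spanned 1.51 log2 units, the widest range within a role group where every gene was called higher.

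Of the 9 polymerase and primase genes, 8 were called higher and 1 lower, with a median of 1.88. For polymerase alpha, which starts each new strand with primase, Pola1 (catalytic) stood at 2.22 ± 0.0080 and Pola2 at 1.69 ± 0.020. The catalytic primase gene Prim1 was at 2.51, 2.51 and 2.49, a 5.67-fold difference (adjusted p = 1.75e-07, limma). For polymerase delta, which copies the lagging strand, Pold1 stood at 1.59 ± 0.0093, Pold2 at 1.81 ± 0.047 and Pold3 at 2.02 ± 0.015. For polymerase epsilon, of the leading strand, Pole was at 1.80, 1.96 and 1.87 and Pole2 at 2.52, 2.57 and 2.53. In each of these polymerases every listed subunit was higher in ES cells, and by the brightest probes the catalytic subunits of delta and epsilon had the lowest ratio of the listed subunits.

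Prim2, the large primase subunit that works as a pair with Prim1, went the other way by its brightest probe. Its spot signals were 3031, 2977 and 2994 in ES cells against 7008, 6936 and 7084 in MEF, and its log2 ratios were -1.40, -1.41 and -1.39. The groups did not overlap, and the level in ES cells was 2.64-fold lower (adjusted p = 3.39e-07, limma). The probe, shown because the only lower call rests on its 60 bases, lies at chr1:33676948-33677007 of mm7 on the minus strand and reads, with no letters in capitals:
Prim2 brightest probe: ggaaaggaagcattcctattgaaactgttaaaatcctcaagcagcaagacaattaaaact
The other Prim2 probe, at chr1:33837023-33837082 of mm7, was designed on another cDNA. Its measured log2 ratios were 0.90, 0.96 and 0.82, with mean signals of 201 in ES cells and 98 in MEF. It was well above background in ES cells on 3 arrays and in MEF on none, so it gives a bound of at least 1.80-fold higher in ES cells. Such a bound divides the ES cell mean by a MEF floor, which on each array is the dimmest signal that still counted as well above background or, if larger, what the probe itself showed, and dye bias can affect it. The direction of Prim2 therefore depends on the probe, and with the mean of both probes, which takes in the measured value of the dim one, it was -0.25 and no longer called.

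Single-strand binding and Okazaki maturation genes were higher in 4 of 4 cases, with a median of 1.62 (3.07-fold). Lig1, the ligase that joins lagging-strand fragments, stood at 1.98, 1.98 and 2.01. Rpa2, a subunit of the protein that coats single strands, stood at 1.86 ± 0.028 and its large partner Rpa1 at 1.30 ± 0.019. Fen1, the nuclease that trims the primer flap, was at 1.39, 1.39 and 1.35. Lig1 and Rpa2 lay above Fen1 and Rpa1 on every array.

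Nucleotide supply had the lowest median of the role groups, 1.30 (2.46-fold), and 2 of its 4 genes were called. Rrm2, the ribonucleotide reductase subunit made in S phase, was at 2.44, 2.48 and 2.57, with signals of 41559, 42486 and 42706 in ES cells against 6703, 6629 and 6392 in MEF. Its catalytic partner Rrm1 was at 0.90, 0.95 and 0.91, with signals of 43576, 46146 and 45390 in ES cells against 20928, 21279 and 21996 in MEF. Neither pair of groups overlapped, but Rrm1 differed by 1.89-fold (adjusted p = 1.77e-06, limma) and stayed under the fold minimum, whereas Rrm2 differed by 5.65-fold. Tk1, the thymidine salvage kinase, was at 0.76, 0.77 and 0.75, a 1.70-fold difference (adjusted p = 1.48e-06, limma) that was not called. Tyms, which makes thymidylate anew, stood at 1.67 ± 0.0066 and 3.19-fold. Rrm1 passed the minimum with the scanner software's processed signals (1.06) and Rrm1 and Tk1 with median centring (1.17 and 1.04).

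Both listed chromatin assembly genes, which encode CAF-1 subunits that place histones on new DNA, were higher. Chaf1b stood at 2.15, 2.12 and 2.10 and Chaf1a at 1.45, 1.43 and 1.52. Their array values did not overlap, and the differences were 4.36-fold and 2.77-fold.

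Where a gene had more than 1 tested probe, the probes mostly gave the same call. This held for 8 of 13 such genes, while in Rfc2, Tyms, Dbf4, Pold3 and Prim2 some probes were called and others were not. In no gene was 1 probe called higher and another lower. These calls rest on the offset of 50, which shrinks ratios of dim probes. With the scanner software's processed signals, the Prim2 probes stood at -1.26 and 2.08, the latter at background in MEF. The uncalled probes of Dbf4, Tyms and Rfc2 then stood at 2.46, 1.21 and 1.12, and that of Pold3 at 0.47. With the offset of 50, the probes of Pold1 gave 1.59 and 1.75 and those of Gins1 2.47 and 2.28, in each case with the brightest probe first. Rpa2 gave 1.86 and 2.32, Mcm3 2.62 and 2.04, Cdc6 2.01 and 1.46, and Pola2 1.69 and 1.34. The dimmer Pola2 probe cleared the MEF background on 1 array of 3. With processed signals it stood at 2.45, against 1.89 for the brightest Pola2 probe. Cdc7 had 3 probes, at 2.61, 1.96 and 1.56, the last of which cleared the MEF background on 1 array of 3. Rfc2 missed the minimum narrowly by its other probe, at 0.99. A dim further probe of Dbf4, well above background in MEF on no array, gave a bound of at least 1.49-fold higher, and a dim second probe of Pole at least 3.29-fold higher. The probes not tested, 1 each of Rrm1, Pola2 and Mcm4, were at background in both channels on all arrays.

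**Figure D3:**
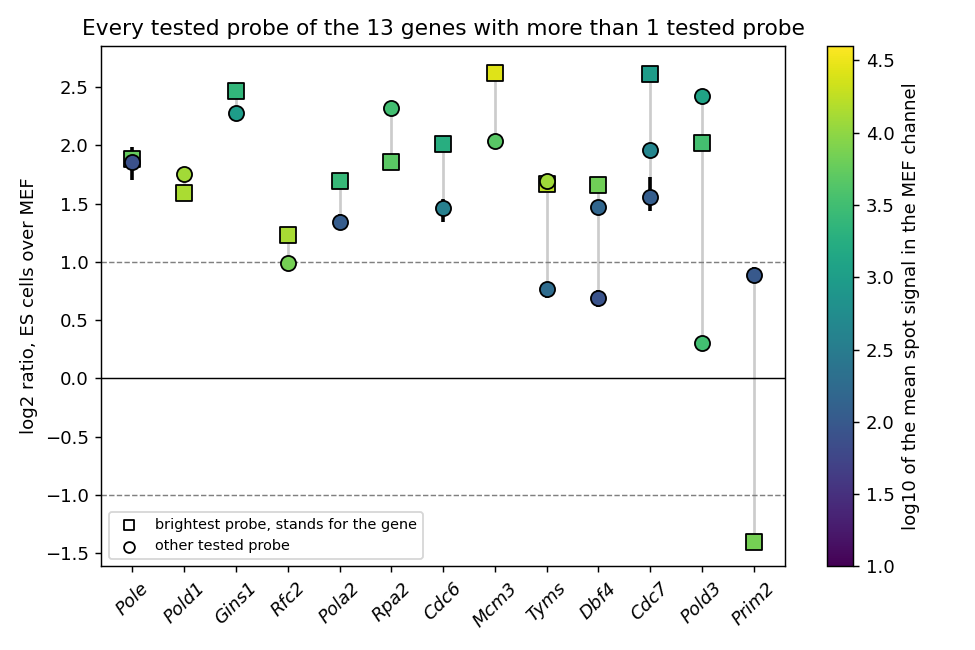
Log2 ratio (ES cells over MEF, y axis) of every tested probe of the 13 replication genes with more than 1 tested probe; squares are the brightest probe, circles the others, bars the range of the 3 arrays, and colour the log10 mean MEF spot signal. The probes of Pold1 (1.59 and 1.75) lie close together and those of Pold3 (0.30 to 2.42) far apart; the circles of Prim2 and Pole and the lowest circle of Dbf4 were at background in MEF, so they mark measured values that give only bounds.

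Pold3 and Tyms each had a pair of overlapping probes that differ in a few bases, which allows the same stretch of transcript to be read by sequences that are almost alike. Capitals mark the bases that differ within the overlap. The Pold3 pair lies on the minus strand at chr7:96129681-96129740 and chr7:96129680-96129739 of mm7, the Tyms pair on the minus strand at chr5:29093977-29094036 and, in more than 1 block, chr5:29093997-29094890.
Pold3 probe with ratio 2.42: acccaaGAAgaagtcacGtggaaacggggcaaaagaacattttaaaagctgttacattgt
Pold3 probe with ratio 0.30: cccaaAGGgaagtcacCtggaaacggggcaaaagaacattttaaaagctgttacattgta
Tyms probe with ratio 1.67: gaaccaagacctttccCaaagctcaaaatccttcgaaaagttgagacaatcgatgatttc
Tyms probe with ratio 1.69: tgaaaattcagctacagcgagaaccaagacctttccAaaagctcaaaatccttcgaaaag

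The Pold3 pair shares 59 bases of overlap, of which 55 match. Counted from the 5′ end of the probe with ratio 2.42, the differences are G7A, A8G, A9G and G18C. That probe gave 2.42, 2.41 and 2.43, with mean signals of 7540 in ES cells and 1240 in MEF. The near-identical probe gave 0.29, 0.28 and 0.32, with 4515 in ES cells and 3264 in MEF, and was not called. The brightest Pold3 probe, elsewhere in the transcript at chr7:96128410-96128469 of mm7, was at 2.00, 2.02 and 2.03. The 2 probes of Pold3 that were called thus lay far above the uncalled one on every array. The Tyms pair shares 40 bases, of which 39 match, with the difference C17A counted from the 5′ end of the probe with ratio 1.67. Those probes gave 1.67, 1.67 and 1.68 and 1.71, 1.69 and 1.66, which overlap. A further, dim Tyms probe gave 0.77 ± 0.070 and was not called. In these data a few differing bases went with a gap of more than 2 log2 units in Pold3 and with none beyond the spread in Tyms. No gene annotation of mm7 was used, so the place of these probes in exons or untranslated regions was not determined.

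The promoters of the replication genes were searched for E2F motifs, as a description only. The words were TTTGGCGC, TTTCCCGC, TTTGCCGC and TTTCGCGC on either strand, in 250 bases before and 50 after the RefSeq start (assembly GRCm38.p6). Of 37 listed genes with such a promoter in the table, 14 (37.8%) held at least 1 match, against 2.60% of 27025 genes with a promoter of the same length. Among the 12359 of these genes that were tested, as all listed genes were, the share was 4.21%. The CCAAT box (CCAAT) was in 59.5% of the listed genes, 41.1% of all and 42.6% of the tested. The cell cycle homology region (TTTGAA) was in 18.9% of the listed genes, 20.2% of all and 15.1% of the tested. A match is a description of letters and no evidence that a factor binds there. The listed genes with an E2F match had a median log2 ratio of 2.02, and those without one 1.81. Over all 12359 tested genes with a promoter, those with a match had a median of 0.39 and were called higher in 31.2% of cases, and those without had a median of -0.10 and were called higher in 20.0%.

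The 4 promoters below, with E2F matches in capitals, are shown because they belong to the gene with the highest ratio and to the MCM subunits with the highest (Mcm3) and lowest (Mcm5) ratio, with Mcm6 added for its overlapping pair of matches. They are RefSeq sequences of GRCm38.p6, on the strand of the gene, for Orc1 at chr4:108579204-108579503 (plus), Mcm3 at chr1:20820263-20820562 (minus), Mcm6 at chr1:128359656-128359955 (minus) and Mcm5 at chr8:75109259-75109558 (plus).
Orc1: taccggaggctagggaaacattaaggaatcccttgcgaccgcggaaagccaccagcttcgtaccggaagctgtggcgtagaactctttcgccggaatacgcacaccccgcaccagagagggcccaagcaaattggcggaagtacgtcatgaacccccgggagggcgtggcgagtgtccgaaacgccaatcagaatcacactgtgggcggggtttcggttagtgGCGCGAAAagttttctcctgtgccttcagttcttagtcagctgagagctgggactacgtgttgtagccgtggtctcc
Mcm3: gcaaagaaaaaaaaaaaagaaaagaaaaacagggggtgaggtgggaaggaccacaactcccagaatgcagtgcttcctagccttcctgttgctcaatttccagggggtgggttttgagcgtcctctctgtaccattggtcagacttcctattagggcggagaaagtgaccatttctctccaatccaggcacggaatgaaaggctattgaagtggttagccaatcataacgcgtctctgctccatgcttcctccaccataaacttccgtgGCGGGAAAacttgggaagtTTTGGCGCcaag
Mcm6: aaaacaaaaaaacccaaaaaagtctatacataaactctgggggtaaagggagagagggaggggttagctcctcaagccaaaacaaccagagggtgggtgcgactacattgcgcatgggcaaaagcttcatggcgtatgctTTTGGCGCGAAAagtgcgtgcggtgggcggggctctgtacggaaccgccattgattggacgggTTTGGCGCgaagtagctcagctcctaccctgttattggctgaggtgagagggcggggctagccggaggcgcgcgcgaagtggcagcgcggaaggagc
Mcm5: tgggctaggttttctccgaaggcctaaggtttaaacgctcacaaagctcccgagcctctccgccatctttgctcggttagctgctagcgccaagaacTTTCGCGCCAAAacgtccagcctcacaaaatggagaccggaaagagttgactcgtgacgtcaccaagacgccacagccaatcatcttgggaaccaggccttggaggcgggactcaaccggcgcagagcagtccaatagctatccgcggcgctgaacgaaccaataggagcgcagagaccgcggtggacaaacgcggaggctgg

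Orc1 has a single match, on the opposite strand, from base -27 before the start. Mcm3 has its 2 matches after the start, from bases 20 and 39. In Mcm5 a pair of matches on opposite strands overlaps to form TTTCGCGCCAAA from base -153, and in Mcm6 such a pair forms TTTGGCGCGAAA from base -110, which is the reverse complement of the Mcm5 stretch. Mcm6 holds a further match from base -47. The ratios of these subunits, 1.56 for Mcm5 and 1.89 for Mcm6, were among the 3 lowest of the ring, and Mcm3 at 2.62 was the highest. Mcm7, at 2.36, also held 2 matches, from bases -165 and 17 of the same promoter, while its other promoter held 0. Mcm2, at 2.54, held 0 matches, and no promoter was available for Mcm4. Over the 14 genes there were 20 matches, 9 of which began after the start, and 5 genes held more than 1. Of the 20, 1 shared a base with a CCAAT box and 0 shared one with TTTGAA.

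**Figure D4:**
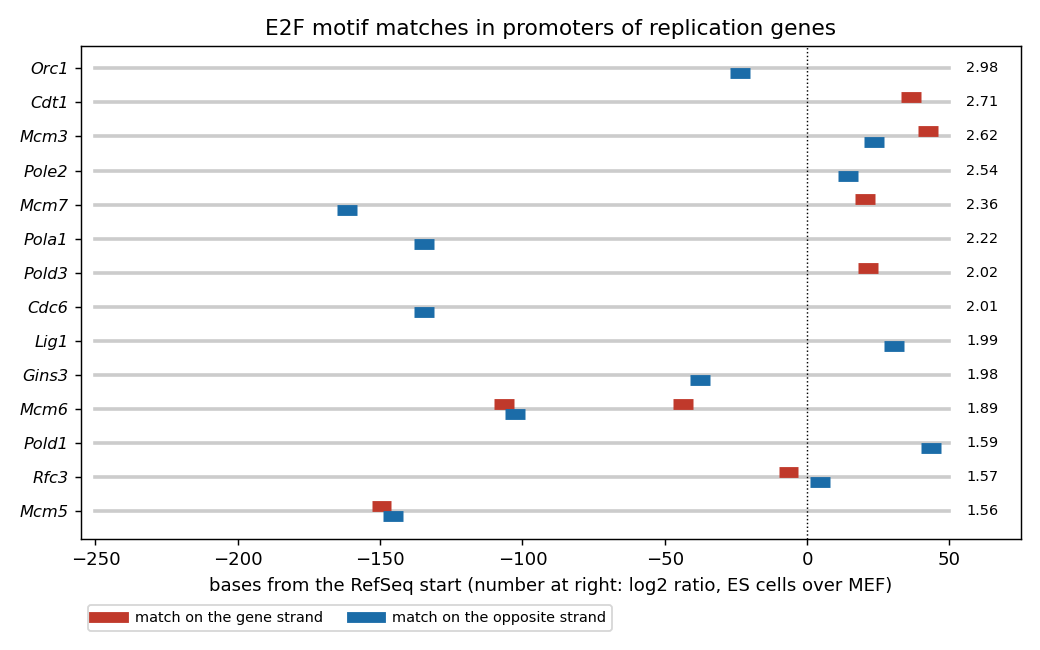
Position of each E2F motif match (x axis, bases from the RefSeq start) in the promoters of the 14 replication genes that hold one, ordered by log2 ratio (ES cells over MEF), which is printed at the right. Matches begin between base -165 and base 40, and genes with ratios from 1.56 (Mcm5) to 2.98 (Orc1) hold them.

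The E2F genes themselves were mixed. Of the 10 E2F and partner genes, 6 (60.0%) were called higher by their brightest probes and none lower, against 20.4% and 22.5% of all tested genes. E2f8 at 2.29 ± 0.032 and E2f7 at 1.78 ± 0.027 were called higher, as were E2f4 at 2.13 ± 0.061, E2f2 at 1.40 ± 0.021 and E2f5 at 1.22 ± 0.040. E2f1 stood at 0.16 ± 0.016, E2f3 at -0.34 ± 0.017 and E2f6 at 0.13 ± 0.017, none of them called. Averaging the probes turned the sign of E2f3 (0.03) and of E2f6 (-0.65), and E2f8 stood at 1.52 with its probes averaged and at 0.76, not called, by its next-brightest probe. By its own next-brightest probe E2f6 stood at -1.43, beyond the fold minimum.

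Genes of the same complexes outside the list were mixed. In the origin recognition complex Orc5 stood at 2.34 ± 0.017 and Orc3 at 1.18 ± 0.032, while Orc4 at 0.60 ± 0.019 was not called. The MCM relatives Mcm8 (2.45 ± 0.024) and Mcm9 (1.27 ± 0.030), Gins4 (1.26 ± 0.00053) and Rpa3 (1.40 ± 0.011) were called higher. In chromatin assembly, Rbbp4 at 0.82 ± 0.033 was not called. The small polymerase subunits were not called higher by their brightest probes. Pold4, the smallest subunit of polymerase delta, was at -1.95, -1.96 and -1.96, a 3.88-fold lower level in ES cells (adjusted p = 1.93e-07, limma), while Pold1, Pold2 and Pold3 were called higher. Of the small histone-fold subunits of polymerase epsilon, Pole3 stood at 0.07 ± 0.025 and Pole4 at 0.86 ± 0.0052, and neither was called. Rrm2b, the form of the small reductase subunit used outside S phase, stood at 0.33 ± 0.065 against 2.50 for Rrm2. Its probe was dim, with mean signals of 298 in ES cells and 219 in MEF, against 42251 and 6575 for Rrm2. The ratio of Rrm2b was 0.57 with the scanner software's processed signals and 0.41 with normexp offset 0. The values of Pole3, Pole4 and Orc3 depend on the probe or the centring. Pole4 passed the minimum with the mean of its probes (1.04), by its next-brightest probe (1.22) and with median centring (1.14). Pole3 was 1.02 by its next-brightest probe, and Orc3 was 0.54 with its probes averaged.

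**Figure D5:**
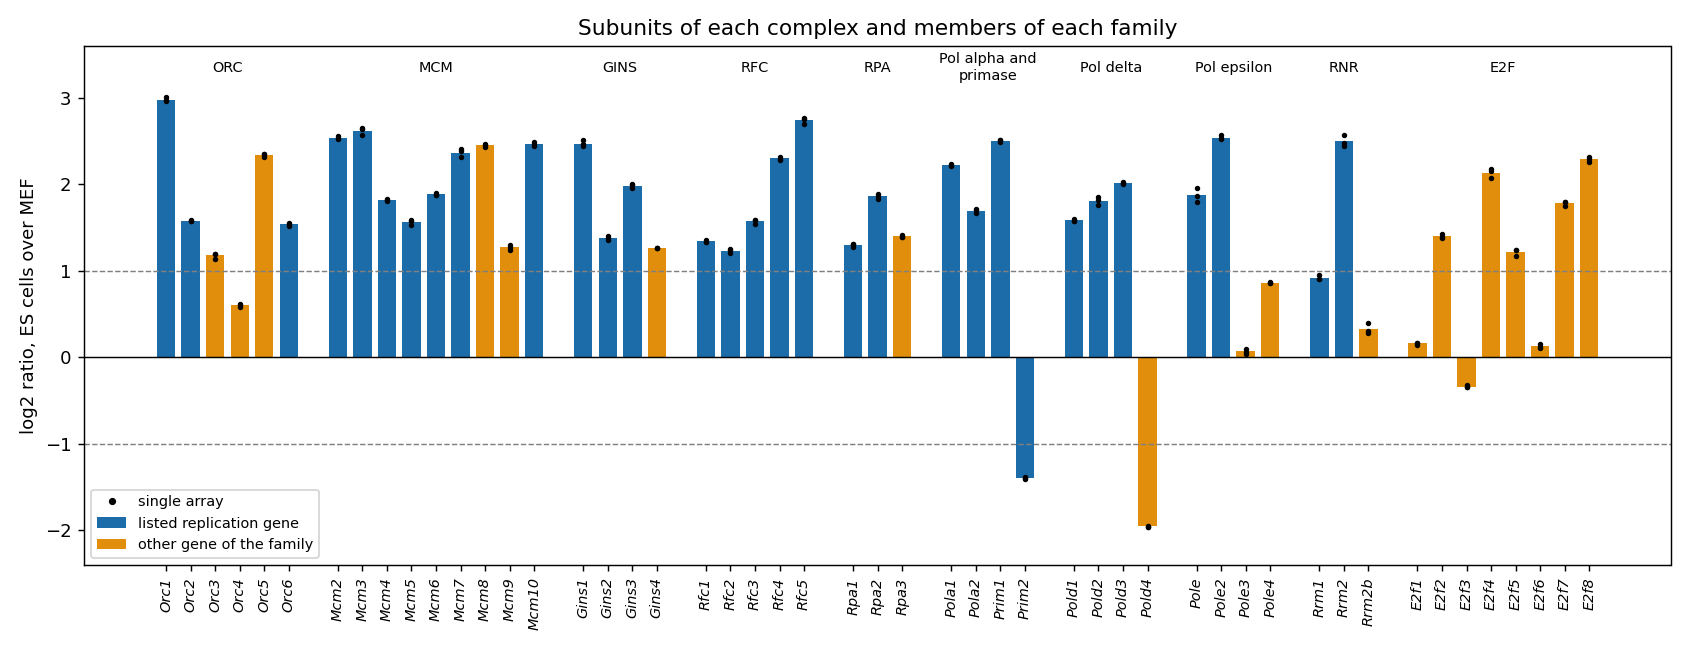
Log2 ratio (ES cells over MEF, y axis) by complex or family. Shown are the origin recognition, MCM, GINS, RFC, RPA, polymerase, primase and ribonucleotide reductase genes and E2f1 to E2f8. Bars are means of 3 arrays and dots single arrays. Blue marks genes of the list of 44, not all of which are drawn, and orange marks others. Prim2 (-1.40), Pold4 (-1.95) and E2f3 (-0.34) lie below 0, and Orc1 (2.98) is highest.

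A wider list of 59 further genes held 45 of replication, 10 of the E2F group and 4 S phase cyclin and kinase genes. Of these, 41 (69.5%) were called higher, 2 (3.39%) lower and 16 not called, against 20.4% higher and 22.5% lower over all tested genes. The median of the 59 genes was 1.43. Rif1, which controls replication timing, was highest at 3.63 ± 0.017, a 12.4-fold difference. It was followed by Dna2, a nuclease and helicase of flap processing, at 3.46 ± 0.020, and Ticrr, which helps load Cdc45, at 3.32 ± 0.035. By the brightest probes these 3 genes lay above every one of the 44 listed genes, but with the mean of all probes Ticrr stood at 2.43, below Orc1. Besides Pold4, the ubiquitin ligase scaffold gene Cul4a was called lower at -1.08 ± 0.019, and its call was lost when its probes were averaged (-0.79). The lowest gene called higher was the histone chaperone gene Asf1a at 1.01 ± 0.0051, which lost its call with the mean of its probes (0.66), by its next-brightest probe (0.32) and under limma's treat with a minimum of 1.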

How the data were processed

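RNA of 3 ES cell replicates (Cy3) was hybridised together with MEF RNA (Cy5), 1 replicate per two-colour Agilent array. The authors' scanner files, made with Agilent Feature Extraction 9.5.3.1 per the file headers, hold the deposited mean spot and median background intensity per channel, processed intensities, and a log10 ratio of red over green. A log2 value table deposited for the series matched the sign-turned log ratio (r = 0.998 to 1.00) and has column medians of 0.213, 0.0859 and -0.143.

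Background was corrected with normexp (offset 50), ratios were normalized by loess within arrays and turned to ES cells over MEF (limma 3.58.1, R 4.3.3). The offset shrinks ratios of dim probes. Outlier spots (117 to 144 per array) were left out. Probes well above background in 1 channel on all 3 arrays were kept (29490 of 41174), and the brightest stood for its gene. Names came from accessions through the RefSeq table of GRCm38.p6 for 22951 probes and from symbols, synonyms or gene numbers for others, and 8161 probes kept the name in the file. The mean log2 ratio was tested against 0 (lmFit, then eBayes), p was adjusted over 19480 genes by Benjamini-Hochberg, and a call needed a value under 0.05 with a size of 1 or more. The procedure was tested on simulated data. The number of arrays limits the precision.

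The members and lists were chosen with earlier results of these data known. All members were named, as were the 3 highest and 3 lowest called further genes, family members of listed genes and E2f1 to E2f8. Alternatives changed the signals, background correction, centring, filters, probe choice, outlier spots, fold minimum and arrays.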

Additional observations from a re-analysis of the deposited data

How the results depend on the processing

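Of the 44 replication genes, between 39 and 43 were called higher under every setting tried, and the count stayed at 41, with 1 called lower, when any array was left out. The share of all genes called higher ran from 14.4% without the filter on dim probes to 45.9% without a fold minimum. The count of 43 came without a fold minimum and with median centring, where the share over all genes was 24.8%. The count of 39 came with the next-brightest probe, where that share was 19.9%. The median log2 ratio of the listed genes, 1.88, ran from 1.88 to 1.90 without one array. It was 2.03 with the scanner software's processed signals and with the authors' value table, 1.92 with normexp offset 0, 2.15 with median centring, and 1.84 both with the mean of all probes and with the next-brightest probe, an alternative chosen after seeing the data. Median centring moved the median of all genes from -0.05 to 0.11, and the listed genes then lay 2.04 above it instead of 1.93. The count called lower was 0 with the mean of all probes and 0 with the next-brightest probe, where Prim2 stood at 0.89, the measured value of a probe at background in MEF. Of 660 values of single listed genes under other settings, 650 kept their direction and side of the threshold. Part of this count was fixed in advance or was counted more than once. Genes with 1 tested probe could not change under a different choice of probe, and the filter settings left the ratios of listed genes as they were. The processed signals and the authors' value table hold largely the same values. The next-brightest probe ended the calls of Rfc2 (0.99) and Pold3 (0.30). Among the further genes 41 stayed called higher without any one array. E2f3 turned to 0.03 with the mean of probes and to 0.10 with the next-brightest probe, and E2f6 to -0.65 and -1.43; the cause was not tested. Cul4a lost its lower call with processed signals (-0.94) and with median centring (-0.80). Each ratio already pairs ES cell and MEF RNA within an array. No paired analysis was possible because the 3 arrays form a single group of ratios, with no second group that shares their numbers. Dim probes limit the ratios. Of the probes of listed genes, 3 were at background in both channels and were not tested, and 3 more were at background in MEF, so their measured ratios stand only as bounds.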
